A study of Mus musculus with 6 samples.

Results

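The interferon response and class I antigen presentation genes were followed in mouse pancreatic islets exposed to CMPF, a circulating metabolite of furan fatty acids. The set held 33 genes listed by symbol, and 31 of them could be read among the 18193 genes of the array. Isg15 was left out because its probe set is also listed for another gene, and Ifi44 was not analysed here. Where a gene had several probe sets of its own, the brightest on average stood for it. By role the measured genes were 19 antiviral genes, 4 transcription factors of the interferon pathway and 8 genes of class I presentation. Islets of male CD1 mice aged 8 weeks rested overnight in culture and were then exposed for 24 hours to 200 uM CMPF (3 arrays) or to vehicle, 0.1% ethanol (3 arrays). RNA from whole islets was measured, so fewer cells of a type and less RNA per cell cannot be told apart. The labels do not say how many animals gave each sample, and they name no interferon or virus given to any group.

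Interferons are secreted proteins that bind cell surface receptors and, through Jak kinases, activate Stat proteins. Stat2 and Irf9 take part in a complex that binds interferon-stimulated response elements (ISREs) near the start of target genes, many of which restrict viruses. Interferon also raises the proteasome subunits, peptide transporters and light chain by which cells show peptides on class I molecules. In islets this pathway is known for its link to autoimmune diabetes, in which beta cells show raised class I molecules and interferon-stimulated genes.

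The start regions of members were searched for the letters of such an element, because the Stat complex binds there in many antiviral genes. RefSeq windows (GRCm38.p6) from 250 bases before to 50 bases after the start were at hand for 26 of the 33 genes. An ISRE-type match was GAAA, any 2 bases and GAAA again on either strand, and overlapping matches were counted separately. It was found in 11 of the 26 genes, against 3.99% of 27025 genes with such windows and 3.44% of 32851 windows. By role it was found in 9 of 16 antiviral genes, 1 of 4 transcription factors and 1 of 6 presentation genes. The letters TTC, any 3 bases and GAA, the core of a gamma-activated site, were found in 5 of the 26 genes, against 9.55% of all genes, and in Bst2 they overlapped an ISRE-type match. A match is a run of letters and not a shown binding site. The windows of the 5 brightest members with a match and with values for each array given below are shown, 5′ to 3′ on the strand of the gene, with the matches in capitals. B2m (chr2:122147437-122147686, + strand), Rsad2 (chr12:26456453-26456702, − strand) and Ifit1 (chr19:34640639-34640888, + strand) are shown as the 250 bases before the start. Ddx58 (chr4:40239804-40239833, − strand) and Ifih1 (chr2:62646206-62646235, − strand) are shown as 30 bases, because their matches lie after the start.
B2m: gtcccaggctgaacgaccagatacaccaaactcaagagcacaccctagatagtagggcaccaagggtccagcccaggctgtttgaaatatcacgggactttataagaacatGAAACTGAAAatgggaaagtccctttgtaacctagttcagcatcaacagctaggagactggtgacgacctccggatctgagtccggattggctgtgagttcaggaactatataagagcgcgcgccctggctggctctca
Rsad2: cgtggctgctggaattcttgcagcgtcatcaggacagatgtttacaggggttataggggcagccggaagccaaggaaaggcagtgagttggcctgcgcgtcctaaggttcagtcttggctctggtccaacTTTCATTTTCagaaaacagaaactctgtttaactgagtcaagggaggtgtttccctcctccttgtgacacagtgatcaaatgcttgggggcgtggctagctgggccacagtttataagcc
Ifit1: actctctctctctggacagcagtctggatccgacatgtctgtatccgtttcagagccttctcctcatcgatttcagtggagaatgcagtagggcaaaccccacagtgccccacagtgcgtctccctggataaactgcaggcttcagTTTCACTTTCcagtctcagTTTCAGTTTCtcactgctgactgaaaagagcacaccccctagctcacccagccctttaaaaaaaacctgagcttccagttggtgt
Ddx58: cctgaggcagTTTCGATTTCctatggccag
Ifih1: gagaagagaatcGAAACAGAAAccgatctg
Ifit1 held 2 matches and the others 1 each. Of the other members, Ifit3, Isg15, Bst2, Gbp2, Gbp3 and Stat2 held a match.

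**Figure D1:**
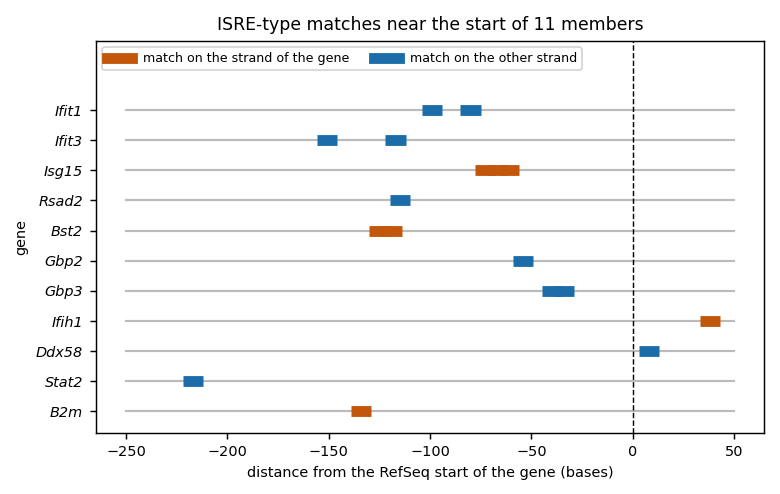
ISRE-type matches (10 bases each) in the windows of 11 members, by distance in bases from the RefSeq start of the gene (dashed line); grey lines are the windows from -250 to 50 and colours give the strand. Matches of 9 members lie before the start, and those of Ifih1 and Ddx58 begin 33 and 3 bases into the gene.

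All values are log2 signals after RMA, in which the arrays were forced to nearly the same distribution. They carry no detection call, and the brightness of a probe set is not compared between genes as expression. The array medians lay between 5.08 and 5.15, and the lowest correlation between arrays was 0.989 (across genes, which are not independent replicates). The islet hormone gene Ins2 read at least 14.6 on every array, close to the highest value of 14.73. Arrays with the same replicate number in both groups deviated together, so they are called pairs here. The gene-wise median log2 level was 6.42, and 20 of the 31 members lay above it. Nlrc5 and Mx1 lay below the lower quartile of 4.53.

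No interferon or presentation gene passed the test between CMPF and vehicle. Limma called 0 of the 31 members and 0% of all genes (adjusted p = 0.99995 for each member). At an unadjusted p under 0.05 it reached 0 members, beside 1.13% of all genes (0.731% higher and 0.396% lower with CMPF), and the groups overlapped for all 31 members, where 2.41% of all genes lay wholly higher and 2.11% wholly lower with CMPF. The median difference, CMPF minus vehicle, was 0.05 log2 units for the antiviral genes, -0.04 for the transcription factors and 0.0019 for the presentation genes, beside 0.0018 for all genes. The antiviral median was 0.26 without CMPF 1 and -0.04 without CMPF 3. The transcription factor median was 0.06 with the mean of all probe sets of a gene and 0.03 with array weights, so its direction was not settled. Of the antiviral genes 14 of 19 had a positive difference, as had 2 of 4 transcription factors and 4 of 8 presentation genes, where 50.7% of all genes had one. With median centring of the arrays the antiviral count was 12, and Oasl2 and Bst2 were the genes that turned. Higher in all 3 pairs were 7 of the 31 members (background 11.8%), namely Ifit1, Ifit3, Rsad2, Usp18, Ddx58, Irf1 and Nlrc5. Lower in all 3 pairs was 1 (background 11.1%), Stat2. With the replicate number as a block, limma again called 0 members and 0% of all genes, and 2 members reached an unadjusted p under 0.05 (background 3.8%), Ifit1 and Rsad2, both higher with CMPF (background 2.52%).

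**Figure D2:**
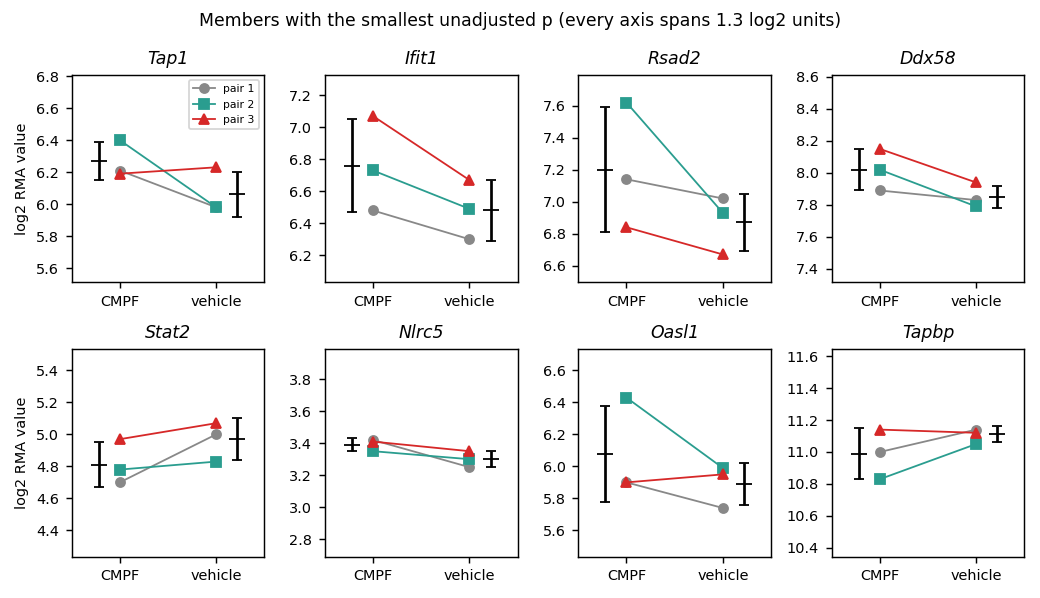
Log2 RMA values of the 8 members with the smallest unadjusted p, CMPF on the left and vehicle on the right of each panel, with a line for each pair; bars beside the points are the mean ± SD of 3 arrays. In every panel the groups overlap, and the lines of Ifit1, Rsad2, Ddx58 and Nlrc5 all run higher with CMPF while those of Stat2 all run lower.

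Among the transcription factors, Irf7, the factor that amplifies interferon production, read 6.02, 6.17 and 6.90 on CMPF arrays 1 to 3, against 6.04, 6.23 and 6.54 on vehicle arrays 1 to 3. The array CMPF 3 was the highest of the 6, and the other CMPF arrays lay within the vehicle range or just under it. The difference was 0.10 (SE 0.24, limma 95% interval -0.46 to 0.66). Irf9, the DNA-binding part of the Stat complex, read 6.56, 7.08 and 7.46 with CMPF, against 6.99, 7.23 and 7.19 with vehicle. The CMPF arrays straddled the vehicle arrays, with a difference of -0.10 (SE 0.215). Stat2, its partner, read 4.70, 4.78 and 4.97 with CMPF, against 5.0, 4.83 and 5.07 with vehicle, a difference of -0.15 (SE 0.111, interval -0.41 to 0.11). Its dimmer second probe set gave a difference of 0.41, so the probe sets of Stat2 disagreed in direction. Irf1, an early interferon-gamma target that acts on presentation genes, read 8.69, 8.77 and 8.90 with CMPF, against 8.65, 8.76 and 8.88 with vehicle. The paired arrays of Irf1 lay within 0.04 of each other, and the interval of its difference ran from -0.22 to 0.26.

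Of the antiviral genes, Rsad2 had the largest positive difference. Rsad2 (viperin), an enzyme that makes a chain-terminating nucleotide, read 7.14, 7.62 and 6.84 with CMPF, against 7.02, 6.93 and 6.67 with vehicle. CMPF 2 stood highest, and CMPF 3 lay inside the vehicle range. The difference was 0.33, a 1.26-fold ratio (SE 0.2, interval -0.14 to 0.80). Under the block its interval was 0.02 to 0.64 (SE 0.126), not adjusted for the number of genes tested. The adjusted limma p under the block was 0.979. Its other probe sets also read higher with CMPF, by 0.13 and 0.26. Ifit1, which binds viral RNA and blocks its translation, read 6.48, 6.73 and 7.07 with CMPF, against 6.30, 6.49 and 6.67 with vehicle. Each CMPF array lay above its vehicle partner, while the steps between arrays of 1 treatment were of similar size. The difference was 0.28, a 1.21-fold ratio (SE 0.167, interval -0.12 to 0.67). Under the block its interval was 0.08 to 0.48 (SE 0.0822), again with an adjusted limma p of 0.979. Ifit3 and Ifit2, of the same family, averaged 6.05 ± 0.42 and 5.39 ± 0.37 with CMPF, against 5.83 ± 0.23 and 5.24 ± 0.15 with vehicle (SD, n = 3 each). Oasl1, of the oligoadenylate synthetase-like family, read 5.90, 6.43 and 5.90 with CMPF, against 5.74, 5.99 and 5.95 with vehicle. Only CMPF 2 lay above the vehicle arrays.

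The sensors of viral RNA did not pass the test, and their groups overlapped. Ddx58 (RIG-I) read 7.89, 8.02 and 8.15 with CMPF, against 7.83, 7.79 and 7.94 with vehicle, a difference of 0.16 (SE 0.1, interval -0.07 to 0.40). Its arrays CMPF 2 and CMPF 3 lay above every vehicle array, and CMPF 1 did not. Ifih1, the sensor of long double-stranded RNA, read 7.64, 8.32 and 8.07 with CMPF, against 7.90, 8.23 and 7.83 with vehicle, a difference of 0.02 (SE 0.19). The CMPF arrays were the lowest and the highest of the 6. Trim25, a ubiquitin ligase that acts on RIG-I, read 9.42, 9.62 and 9.55 with CMPF, against 9.45, 9.75 and 9.48 with vehicle. The groups of Trim25 covered nearly the same values, with a difference of -0.03 (SE 0.113). Its other probe sets went the other way, by 0.06 and 0.31, and the second of these was higher with CMPF in all 3 pairs.

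The guanylate-binding protein genes, whose products attack membranes around intracellular pathogens, were among the 3 members with the widest range, beside Xaf1. Gbp2 read 4.82, 5.37 and 6.40 with CMPF, against 5.30, 6.06 and 5.96 with vehicle. Its range over the 6 arrays, 1.58 log2 units, was the widest of the 31 members, and its difference was -0.25 (SE 0.393, interval -1.17 to 0.68). Its dimmer second probe set gave 0.19 and was higher with CMPF in every pair, by 0.0032, 0.12 and 0.43. That probe set read between 4.78 and 5.74, so the range and direction of Gbp2 depended on the probe set. Gbp3 read 5.75, 6.74 and 7.06 with CMPF, against 6.24, 6.80 and 6.56 with vehicle, a difference of -0.01 (SE 0.324). On the probe sets used for both genes the CMPF arrays took the lowest and the highest place.

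Xaf1, a pro-apoptotic interferon target, read 6.53, 6.85 and 7.98 with CMPF, against 6.71, 6.95 and 7.30 with vehicle. Its value on CMPF 3 stood 0.68 above that on vehicle 3, the largest step in pair 3 of any member. The other probe set of Xaf1 went the other way in that pair, by -0.69, with 5.97, 6.54 and 4.78 with CMPF, against 6.01, 6.75 and 5.47 with vehicle. The step therefore depended on the probe set. Usp18, the protease that removes Isg15 from proteins and restrains the receptor, read 8.36, 7.95 and 8.45 with CMPF, against 8.26, 7.81 and 8.40 with vehicle. Each pair of Usp18 differed by 0.14 or less. Rtp4, an interferon-induced gene, read 7.82, 8.56 and 8.89 with CMPF, against 7.91, 8.64 and 8.60 with vehicle. Array 1 was the low one in both groups. Ifi35 read 9.59, 9.71 and 9.77 with CMPF, against 9.65, 9.84 and 9.69 with vehicle, and its groups overlapped almost fully. The remaining antiviral genes (Oasl2, Mx1, Mx2, Bst2 and Parp14) had differences between -0.06 and 0.11.

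The presentation genes had the narrowest median range of the roles. The immunoproteasome subunits Psmb8, Psmb9 and Psmb10 are catalytic subunits that take the place of Psmb5, Psmb6 and Psmb7 when interferon acts. Psmb8 read 9.08, 9.30 and 9.37 with CMPF, against 9.18, 9.27 and 9.43 with vehicle, with a difference of -0.04 (SE 0.113). Psmb9 read 7.91, 8.06 and 8.06 with CMPF, against 8.02, 8.01 and 7.99 with vehicle, and its interval ran from -0.19 to 0.20. For Psmb10 the values were 9.08, 9.28 and 9.17 with CMPF, against 9.13, 9.16 and 9.24 with vehicle, with an interval from -0.21 to 0.21. The groups overlapped for all of these subunits, and differences beyond 0.31 in size lay outside their intervals. The standard subunits gave 0.04 for Psmb5, -0.03 for Psmb6 and -0.09 for Psmb7.

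Tap1 and Tap2 form the transporter that carries peptides into the endoplasmic reticulum. Tap1 read 6.21, 6.40 and 6.19 with CMPF, against 5.98, 5.98 and 6.23 with vehicle. Pairs 1 and 2 stood apart and pair 3 did not. Its difference of 0.20 (SE 0.11, interval -0.06 to 0.46) had the smallest unadjusted limma p of the members, and its 3 dimmer probe sets gave differences between -0.07 and -0.02. Tap1 and Psmb9 start 225 bases apart on opposite strands of chromosome 17 (Psmb9 at 34187330 and Tap1 at 34187556, GRCm38.p6), and their measured differences were 0.20 and 0.01. Tap2 read 7.88, 7.99 and 8.06 with CMPF, against 7.98, 7.95 and 7.98 with vehicle. Its CMPF arrays lay on both sides of the vehicle arrays.

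Tapbp (tapasin), which holds class I molecules at the transporter, read 11.00, 10.83 and 11.14 with CMPF, against 11.14, 11.05 and 11.12 with vehicle, a difference of -0.12 (SE 0.103). CMPF 2 was its low array. B2m, the light chain shared by class I molecules, read 12.18, 12.48 and 12.59 with CMPF, against 12.29, 12.52 and 12.47 with vehicle, a difference of -0.01 (SE 0.13, interval -0.32 to 0.29). As in many antiviral genes, array 1 was lowest in each group of B2m and CMPF 3 was highest. Nlrc5, the activator of class I genes, was dim at 3.42, 3.35 and 3.41 with CMPF, against 3.25, 3.30 and 3.35 with vehicle. All 3 pairs of Nlrc5 were higher with CMPF, by 0.17 at most.

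**Figure D3:**
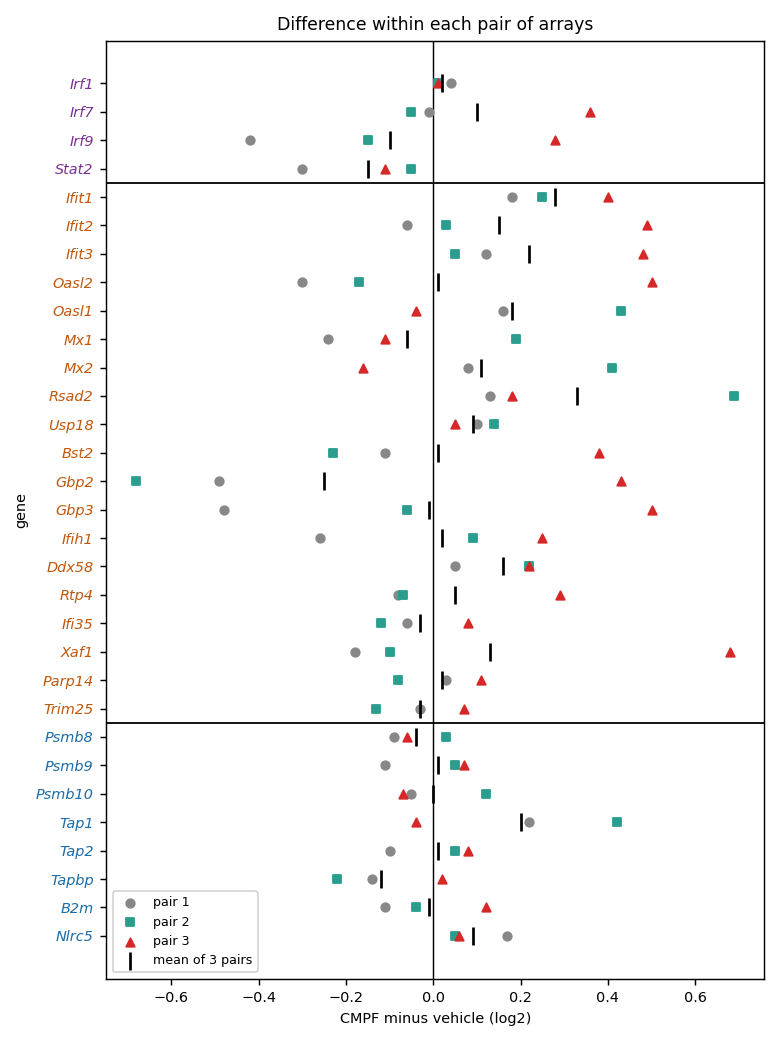
CMPF minus vehicle in log2 units for each of the 31 members, with a symbol for each pair and a black tick for the mean of the 3 pairs; gene names are coloured purple for transcription factors, orange for antiviral and blue for presentation genes. The triangles of pair 3 lie to the right of 0 for 16 of 19 antiviral genes, and the presentation genes stay between -0.22 and 0.42.

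The pairs did not show the same picture. In pair 3 the antiviral genes lay higher with CMPF by a median of 0.25, against -0.06 in pair 1 and 0.03 in pair 2. In that pair 16 of 19 were higher (49.2% of all genes), against 8 in pair 1 (48.8%) and 10 in pair 2 (52.3%), and those higher by at least 0.2 in pair 3 numbered 11 (10.1% of all genes). The count of 11 was 10 after a second quantile normalization and 9 with the mean of all probe sets of a gene. With that mean the antiviral median of pair 3 was 0.12, and the median of pair 1 was 0.02 under both alternatives. In pair 1, 0 antiviral genes were higher by at least 0.2 (15.8% of all genes) and 5 were lower by as much (14.1%). The transcription factors had pair medians of -0.16, -0.05 and 0.15, and the presentation genes -0.10, 0.05 and 0.04. The antiviral median exceeded the presentation median by 0.03 in pair 1 and 0.21 in pair 3, and the same difference was -0.01 in pair 2. Whether the roles differed was not tested.

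Arrays of the same treatment also differed among themselves. CMPF 3 exceeded CMPF 1 by a median of 0.46 over the antiviral genes, and 17 of 19 were higher on it, where 45.9% of all genes were. Vehicle 3 exceeded vehicle 1 by a median of 0.20, again with 17 of 19 higher (49.1% of all genes). CMPF 1 was the lowest of the 3 CMPF arrays for 15 of 19 antiviral genes (background 32.8%), and vehicle 1 the lowest of the vehicle arrays for 14 (background 28.5%). CMPF 3 was the highest of all 6 arrays for 12 (background 14%), and CMPF 1 the lowest of all 6 for 11 (background 21.4%). All 4 transcription factors read lowest of the CMPF arrays on CMPF 1 and highest on CMPF 3. In the presentation genes CMPF 3 exceeded CMPF 1 by a median of 0.15. The range over the 6 arrays reached 0.5 log2 units in 14 of 19 antiviral genes, 2 of 4 transcription factors and 0 of 8 presentation genes, against 28.4% of all genes. Median ranges were 0.74, 0.63 and 0.26 in that order of roles, beside 0.37 for all genes. Antiviral genes with an ISRE-type match had a median range of 0.89 (n = 8) and those without one 0.71 (n = 6).

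**Figure D4:**
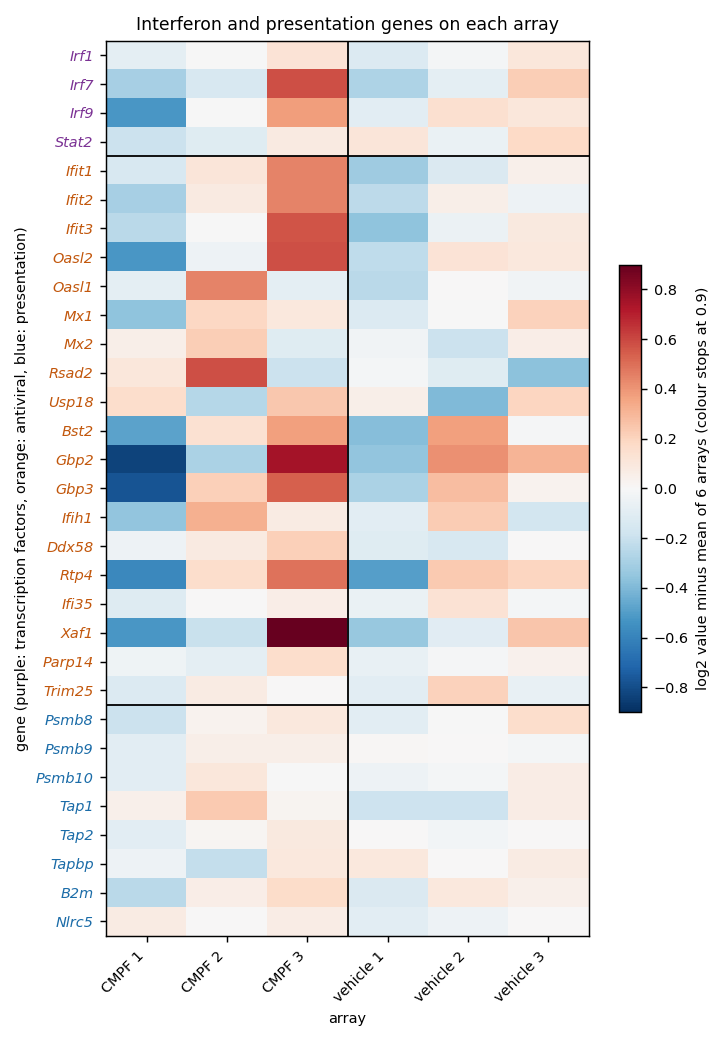
Log2 value of each member on each array minus its mean over the 6 arrays (red higher, blue lower, colour stops at 0.9), CMPF arrays left of the line and vehicle arrays right. CMPF 1 and vehicle 1 are blue for most antiviral genes, CMPF 3 is red for most, and the presentation rows stay pale.

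**Figure D5:**
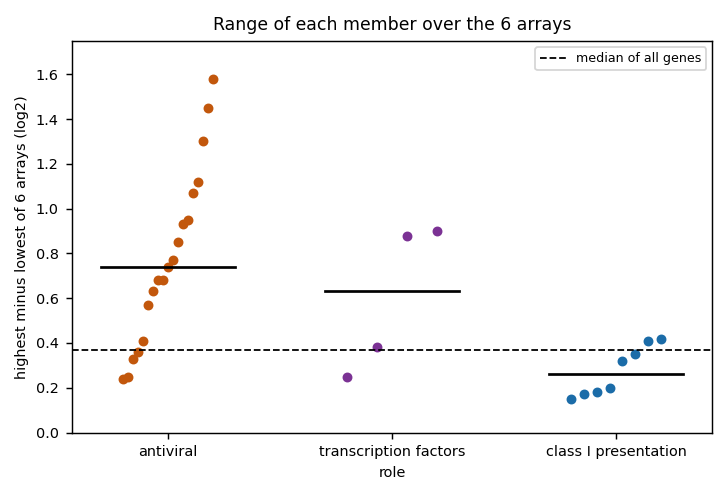
Highest minus lowest log2 value over the 6 arrays for each member (points), by role, with the median of the role (black bar) and of all genes (dashed line at 0.37). Antiviral genes reach 1.58, and all 8 presentation genes lie at 0.42 or less.

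Markers of other cell types also differed between the arrays, and in pair 3 several of these lists were higher with CMPF, as the antiviral genes were. Endothelial markers (11 of 11 measured) averaged between 5.77 and 6.41 on the CMPF arrays, against 5.76 to 6.20 on the vehicle arrays. CMPF 1 was the lowest CMPF array for 10 of them (32.8% of all genes) and vehicle 1 the lowest vehicle array for 11 (28.5%). Array 1 was also the lowest of its group for most antiviral genes. The highest vehicle array was vehicle 3 for 9 endothelial markers, but vehicle 2 for 10 of 19 antiviral genes. In pair 3 their median difference was 0.24, with 9 of 11 higher (49.2% of all genes) and 7 by at least 0.2 (10.1%). With the block 5 of 11 reached an unadjusted limma p under 0.05 (3.8% of all genes), and 0 were called after adjustment. Stellate cell markers (10 of 10 measured) averaged between 8.18 and 9.39 with CMPF, against 8.53 to 9.12 with vehicle. Their median in pair 3 was 0.28, with 9 of 10 higher (49.2% of all genes) and 7 by at least 0.2 (10.1%). Only 1 of 10 was higher in pair 1 (48.8% of all genes) and 1 in pair 2 (52.3%). CMPF 3 was the highest CMPF array for 9 stellate markers, and the lowest was CMPF 2 for 6 and CMPF 1 for 4. Macrophage markers (15 of 15 measured) averaged between 6.20 and 6.36 with CMPF, against 6.19 to 6.28 with vehicle, with a median of 0.06 in pair 3. CMPF 3 was highest of the CMPF arrays for 11 macrophage markers, and the lowest was CMPF 2 for 8 and CMPF 1 for 5. The 4 pan-leukocyte markers averaged between 5.23 and 5.62 with CMPF, against 5.29 to 5.67 with vehicle. Lymphocyte markers (12 of 14 measured) averaged between 4.40 and 4.61 with CMPF, against 4.30 to 4.50 with vehicle, and CMPF 1 was the lowest CMPF array for 0 of them. Acinar markers (10 of 15 measured) averaged between 12.28 and 13.22 with CMPF, against 11.33 to 13.14 with vehicle. All 10 were higher with CMPF in pair 1 (48.8% of all genes), 9 in pair 2 (52.3%) and all 10 in pair 3 (49.2%). Their median in pair 3 was 0.97. With the block 6 reached an unadjusted limma p under 0.05 (3.8% of all genes), and 0 were called after adjustment. Duct markers (6 of 8 measured) had a median of 0.38 in pair 3, with 5 of 6 higher by at least 0.2 (10.1% of all genes). Dendritic cell markers (6 of 7 measured) had a median of -0.01 in pair 3, and CMPF 1 was the highest CMPF array for 5 of them (6694 of 18193 genes). Beta cell markers (8 of 11 measured) averaged 11.87, 11.33 and 11.25 with CMPF, against 11.77, 11.38 and 11.45 with vehicle. They ran opposite to the antiviral genes, with CMPF 1 the highest CMPF array for 8 of 8 (6694 of 18193 genes). Vehicle 1 was the highest vehicle array for 7 (5780 of 18193 genes). All 8 were lower with CMPF in pair 3, where 49.2% of all genes were higher, but only 3 by at least 0.2 (8.64% of all genes). Their ranges over the 6 arrays went from 0.11 for Iapp and 0.12 for Ins2 to 1.83 for Slc2a2. The values have no detection call, so no marker can be called absent, and the part of these cell types in the antiviral values was not tested.

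Genes around the members gave no call either. Of the receptor and signalling list 16 of 17 genes were measured, with 0 called and a median of -0.01. In all 3 pairs 3 were higher (background 11.8%) and 2 lower (background 11.1%). Ifnar1 and Ifnar2, the type I receptor chains, differed by 0.07 (SE 0.112) and 0.03 (SE 0.103), and Ifngr1 of the interferon-gamma receptor by -0.07 (SE 0.155). Ifngr2, its second chain, read 7.45, 8.10 and 7.81 with CMPF, against 6.95, 7.97 and 7.63 with vehicle, and was higher with CMPF in every pair. The kinases Jak1 and Tyk2 differed by -0.08 (SE 0.123) and 0.09 (SE 0.101). Stat3 and Socs1, a feedback inhibitor of Jak kinases, differed by -0.12 (SE 0.12) and 0.14 (SE 0.113). Of 50 other interferon-stimulated genes 46 were measured, with 0 called and a median of 0.02. In all 3 pairs 6 were higher (background 11.8%) and 3 lower (background 11.1%). In pair 3, 34 of these 46 were higher with CMPF (49.2% of all genes) and 16 by at least 0.2 (10.1%). Cxcl11, a chemokine for T cells, read 5.23, 5.59 and 5.16 with CMPF, against 4.75, 5.01 and 4.97 with vehicle. Cxcl11 was the 1 gene of the 46 whose groups did not overlap, where 2.41% of all genes lay wholly higher with CMPF. Its difference of 0.42 (SE 0.138) had the smallest unadjusted limma p of the 46, 0.018, with an adjusted p of 0.99995. Cxcl10, of the same chemokine family, differed by 0.03 (SE 0.121), and Ifitm1, a membrane protein that blocks viral entry, by 0.31 (SE 0.178). Eif2ak2, the kinase that stops translation on viral RNA, differed by -0.24 (SE 0.142), with -0.63 in pair 1 and -0.03 in pair 3.

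Other class I genes (15 of 18 measured) had a median of -0.03, with 0 called. In all 3 pairs 0 were higher (background 11.8%) and 5 lower (background 11.1%). The 5 were Canx, Pdia3, Erap1, Sec61a1 and Hspa5, with neither H2-K1 nor H2-D1 among them. H2-K1 and H2-D1, the classical class I heavy chains, read 12.62, 12.85 and 12.45 and 12.83, 13.02 and 12.52 with CMPF, against 12.73, 12.79 and 12.38 and 12.89, 12.86 and 12.47 with vehicle. Array 3 was lowest in both groups for both genes, unlike their light chain B2m. Their differences were 0.01 (SE 0.149) and 0.04 (SE 0.165), and since these genes are similar in sequence their probe sets may share signal. Psme1, of the proteasome activator that interferon raises, differed by -0.03 (SE 0.145), and Psme2 was not analysed here because its probe set is listed with another gene. Mr1 and Cd1d1, class I-like molecules that show metabolites and lipids, differed by 0.17 (SE 0.102) and -0.16 (SE 0.126), and Sec61a1, of the channel into the endoplasmic reticulum, by -0.11 (SE 0.0913).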

How the data were processed

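Per the labels' protocols, 200 ng of total RNA from each of 6 islet samples was amplified and hybridised. The deposited log2 values come from RMA, run by the authors in Expression Console 1.1 (per the submitters' processing notes). Its settings were not given in the sources used here. RMA equalises the arrays and compresses differences of dim genes. The number of arrays limits the precision. Of 45101 probe sets, 64 controls, 932 with several genes and 9160 with none were left out, and 0 value columns lacked a sample. Gene names follow the platform's annotation and RefSeq (GRCm38.p6), with 0 symbols changed.

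CMPF was compared with vehicle by limma 3.58.1 in R 4.3.3, two-sided, adjusted by Benjamini-Hochberg over 18193 genes at 0.05. SEs and intervals come from the fit without the replicate block unless the block is named. Replicates are the samples numbered 1 to 3 in the labels, which do not call them separate animals, so p-values measure only the spread among these 6 samples, possibly a technical one. Deviations from the group mean correlated at 0.488 to 0.638 for arrays of the same number and at -0.555 to 0.0885 otherwise. The numbers were therefore taken as pairs, from the data alone. Deviations within a group cancel out for each gene, so the second range is not separate support for the pairing. The members and lists were chosen with earlier results of these data known. Values per array are given for the presentation and transcription factor genes, the 5 brightest antiviral genes, the 8 members with the smallest p and the 3 with the widest range, and the 3 genes with the smallest p and some chosen by name stand for each other list. Start regions are printed for the 5 brightest of these members with a match. Limma was tested on simulated data, and 16 alternatives were run.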

Additional observations from a re-analysis of the deposited data

How the results depend on the processing

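Over the 16 alternatives limma called 0 genes and 0 members, with 56 to 805 genes and at most 2 members at an unadjusted p under 0.05. The replicate block left the antiviral median at 0.05, kept 0 calls and changed no other call; unadjusted p under 0.05 was then reached by 692 genes, against 205 without it. Leaving out 1 array or 1 pair gave antiviral medians from -0.04 to 0.26, transcription factor medians from -0.20 to 0.10 and presentation medians from -0.03 to 0.06, and 0 calls in each. The antiviral median was 0.26 without CMPF 1 and -0.04 without CMPF 3, and it was also below 0 without vehicle 1 (-0.01) and without pair 3 (-0.03). With array weights it was 0.16. Over the pairs left, 8 to 11 members were higher and 1 to 13 lower in all of them (13 without CMPF 3, vehicle 3 or pair 3). These counts cannot be set against those over 3 pairs, because fewer pairs must agree. The lower count also depended on the pair left out, with 1 without pair 1, 4 without pair 2 and 13 without pair 3. The same counts over all genes are not given here. The number lower in all 3 pairs, 1 in the values as reported, was 2 with median centring, 2 with a second quantile normalization and 0 with the filter at the median level, which drops Stat2 as too dim. Under the 7 alternatives that keep all arrays the 3 medians moved by less than the spread over pairs, and under the block they could not move. The transcription factor median turned to 0.06 with the mean of probe sets and 0.03 with array weights, and the presentation median lay between -0.02 and 0.02. Of 13 members with several probe sets, 8 had probe sets of both signs (Gbp2, Ddx58, Xaf1, Trim25, Stat2, Psmb8, Tap1 and Tapbp). Precision was limited by 3 arrays a group. Without the block the median SE was 0.188 log2 units for antiviral and 0.0968 for presentation genes. With the block, which takes out the spread between pairs, it was 0.107 and 0.081.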

Other observations

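The genes that start an interferon response also gave no call by limma. Of 11 listed interferon and related cytokine genes 7 were measured, 6 of them below the median level of all genes, with a median difference of 0.11. Ifna1, a type I interferon, read 5.37, 5.16 and 5.34 with CMPF, against 5.12, 4.99 and 5.10 with vehicle. It was the 1 gene of the 7 whose groups did not overlap, where 2.41% of all genes lay wholly higher with CMPF. Its unadjusted limma p of 0.0549 was the smallest of the 7, with an adjusted p of 0.99995. Ifnb1, the other main type I interferon, went the other way with 4.95, 4.81 and 4.77 with CMPF, against 5.16, 4.86 and 4.95 with vehicle, a difference of -0.15 (SE 0.109), and Ifna4 differed by 0.13 (SE 0.107). Of the nucleic acid sensing list 14 of 15 were measured, with 1 higher (background 11.8%) and 2 lower (background 11.1%) in all 3 pairs. Aim2, a sensor of cytosolic DNA, differed by -0.18 (SE 0.0947) and the endosomal sensors Tlr7 and Tlr9 by -0.13 (SE 0.12) and -0.20 (SE 0.134).

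Class II presentation genes, which mark macrophages and dendritic cells in islets, had a median difference of 0.03 (8 of 9 genes measured). In all 3 pairs 1 was higher (background 11.8%) and 0 lower (background 11.1%). Cd74, the invariant chain, read 6.40, 6.28 and 6.58 with CMPF, against 6.33, 6.49 and 6.57 with vehicle. Ciita, the activator of class II genes, differed by 0.09 (SE 0.0949) and Ifi30, a lysosomal thiol reductase, by 0.08 (SE 0.0927), and H2-DMa, which helps load peptides, by 0.05 (SE 0.0927). Ptprc, present on all leukocytes, read 4.65, 5.05 and 5.45 with CMPF, against 4.83, 5.67 and 5.25 with vehicle, so array 1 was its low one in each group. CMPF 1 was the lowest CMPF array for 3 of the 4 pan-leukocyte markers and 1 of 8 class II genes (background 32.8%). For 6 class II genes it was CMPF 2. Vehicle 1 was the lowest vehicle array for 3 of 4 and 5 of 8 (background 28.5%).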
